A study of Homo sapiens with 4 samples.

Results

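The glutathione and thioredoxin systems are described here through the noncoding transcripts of 10 genes: GCLC, GCLM, GSS, GSR, GPX4, GSTP1, MGST1, TXN, TXNRD1 and SLC7A11. Every Ensembl transcript of the deposited table whose GENCODE release 29 gene name is one of these was taken if it does not code for protein and is not a decay transcript. That rule gave 39 of the table's 106179 transcripts. They belong to 9 of the 10 genes, because the table used here lists no noncoding transcript of SLC7A11. GENCODE classes 23 of the 39 as retained-intron transcripts, which keep part of an intron, and 16 as processed transcripts, which have no open reading frame assigned. A count above 0 was found for 35 of them.

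The samples were 4 libraries of total RNA from HepG2, an established human liver cancer line. Of these, 2 were labelled wild type and 2 oxaliplatin resistant, oxaliplatin being a platinum drug that binds DNA. All cells were grown in the same serum-containing medium, and the labels list no treatment of either group. No source used here tells how resistance was obtained, whether the resistant line is 1 clone, or whether replicate libraries are separate cultures. Every p-value therefore reflects library-to-library spread that may be only technical.

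Glutathione is a small peptide built in sequence by glutamate-cysteine ligase and glutathione synthetase from cysteine that the cell takes up largely as cystine. It is oxidised when it detoxifies peroxides, is attached to reactive compounds by glutathione transferases, and is recycled by glutathione reductase. Thioredoxin and its reductase form a parallel system that keeps protein thiols reduced. Both systems draw electrons from NADPH, and many of their genes are targets of the transcription factor NRF2.

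Summed deposited counts per library were 38113398 and 34898860 in the wild-type pair against 43473826 and 44063444 in the resistant pair. Some transcripts held over 1000 counts in one library and 0 in its replicate, and the counts were read as estimates that may divide reads among overlapping transcripts. This was seen for 2 of the 39 transcripts, both in the resistant pair, and for 670 transcripts of the whole table in that pair and 560 in the wild-type pair. Liver identity could be checked only on noncoding transcripts. Of 17 hepatocyte and HepG2 marker genes, 11 were in the table and 8 of these were at 0 in every library, among them AFP, APOC3, TF, TTR, SERPINA1, FGB and AHSG, while ALB had 8, 0, 0 and 0 counts. The summed hepatocyte markers were at 0.374 and 0.405 CPM (counts scaled to library size) in the wild-type pair against 0.267 and 2.14 CPM in the resistant pair. FGG, the 1 hepatocyte marker that was tested, had 3 and 9 counts in the wild-type pair against 8 and 74 in the resistant pair. The listed liver markers are therefore at 0 or low among the transcripts this table holds. Of 15 fibroblast, endothelial and immune markers, 13 were in the table and 6 were at 0, with sums of 6.15 and 9.17 CPM in wild type and 4.35 and 1.73 CPM in resistant libraries. PDGFRB had 106 and 160 counts in the wild-type pair against 44 and 11 in the resistant pair. COL1A1 had 62 and 78 against 87 and 34 counts, with overlapping groups. The part of these markers in the results below was not tested.

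Resistant and wild-type libraries were compared with edgeR's quasi-likelihood test on all transcripts and on sums of the noncoding transcripts of each gene, with Benjamini-Hochberg adjustment over the whole table. The test called no gene sum (0.00% of 13734) and no transcript (0.00% of 42393) at an adjusted p of 0.05. None of the 9 member gene sums and none of the 33 member transcripts that passed the low-count filter was called. At an unadjusted p under 0.05 there were 1 of 9 gene sums (GSS, higher) and 5 of 33 transcripts (2 higher, 3 lower). Over all features, 8.67% of genes were at such a p, 4.73% higher and 3.94% lower, and 7.74% of transcripts, 4.56% higher and 3.18% lower. The 2 groups did not overlap for 4 of the 9 gene sums, 2 higher and 2 lower in resistant cells, against 43.0% of all genes (22.6% higher, 20.5% lower). They did not overlap for 14 of the 33 transcripts, 6 higher and 8 lower, against 40.3% of all transcripts (21.4% higher, 18.9% lower). Both shares are near the background. The median log2 fold change was 0.11 over the 9 gene sums, beside 0.01 over all genes, and 0.01 over the 33 transcripts, beside 0.02 over all transcripts. DESeq2, run as an alternative, called 1446 genes (9.35%) and 3239 transcripts (6.58%) and, of the members, the GSS sum and 5 transcripts, 2 higher and 3 lower. Limma-voom called none. In bulk RNA, fewer cells of a kind and less RNA per cell cannot be told apart.

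**Figure D1:**
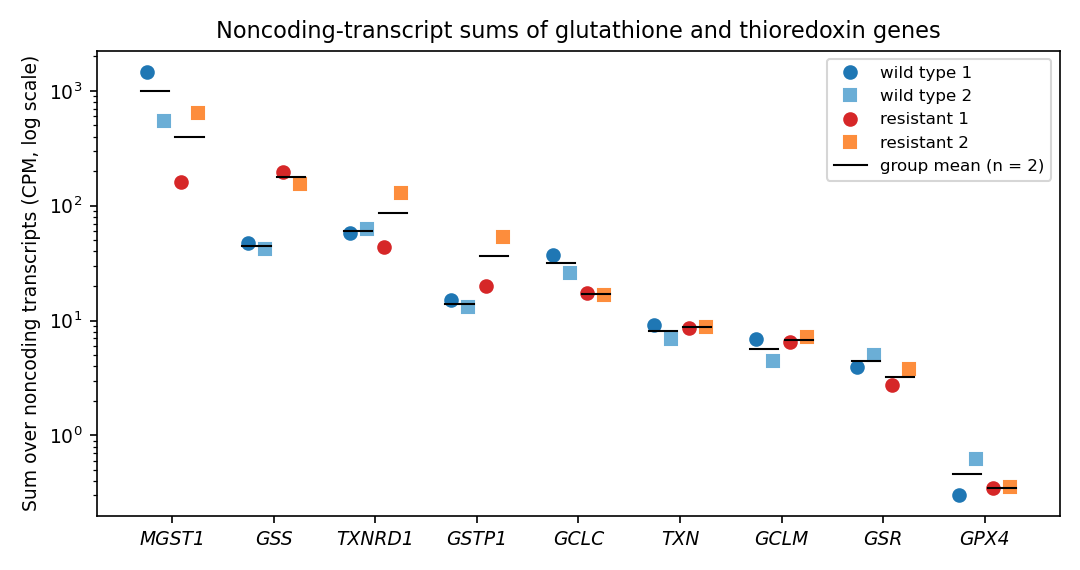
Sum over noncoding transcripts of each gene in CPM (log axis), with 1 point per library and a bar at each group mean (n = 2). The resistant GSS points, at 155.0 and 198.5 CPM, lie above both wild-type points. The MGST1, TXNRD1 and GSTP1 sums differ by 2.68 times or more between the 2 resistant libraries, and MGST1 by 2.70 times between the 2 wild-type ones.

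GCLC encodes the catalytic subunit of glutamate-cysteine ligase, the rate-limiting enzyme of glutathione synthesis, on chromosome 6 (53497341 to 53616970, minus strand, GRCh38). Its 6 noncoding transcripts summed to 1105 and 708 counts in the wild-type pair against 647 and 614 counts in the resistant pair. Both resistant values lay below both wild-type values. In CPM the means were 31.8 ± 8.10 and 17.04 ± 0.313 (SD, n = 2 each), a log2 fold change of -0.90 ± 0.34 (SE) with an edgeR adjusted p of 0.618. The sum did not come from 1 transcript. ENST00000515580, of whose 31-base windows 6.66% also occur in transcripts of other genes, had 441 and 106 counts in the wild-type pair against 149 and 186 in the resistant pair, and the groups overlapped. ENST00000505294 had 164 and 362 counts in the wild-type pair against 119 and 142 in the resistant pair, without overlap (log2 fold change -1.41 ± 0.64, edgeR adjusted p = 0.813), and the value was -0.64 without the second wild-type library. ENST00000504353 had 168 and 127 counts in the wild-type pair against 157 and 116 in the resistant pair, lower without overlap once scaled to library size. ENST00000514373 was higher in resistant cells without overlap, at 9 and 13 against 23 and 25 counts. ENST00000510837 spanned 47 to 281 counts and ENST00000514933 spanned 33 to 93 counts, each with overlapping groups.

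GCLM encodes the modifier subunit of the same enzyme, on chromosome 1 (93885205 to 93909456, minus strand). Its single counted noncoding transcript, ENST00000462183, had 203 and 121 counts in the wild-type pair against 242 and 261 in the resistant pair. After scaling to library size the groups overlapped, with means of 5.67 ± 1.72 and 6.80 ± 0.490 CPM (SD, n = 2 each; log2 fold change 0.26 ± 0.43, edgeR adjusted p = 0.909). The value was -0.0185 without the second wild-type library. ENST00000467772 was at 0 in every library.

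GSS encodes glutathione synthetase, the second enzyme of the pathway, which adds glycine (ENSG00000100983, chromosome 20, 34928433 to 34956027, minus strand). Its noncoding sum was 1394 and 1133 counts in the wild-type pair against 7438 and 5656 counts in the resistant pair. The groups were far apart, at 44.5 ± 3.97 and 176.7 ± 30.8 CPM (SD, n = 2 each), which is 3.97-fold higher in resistant cells. The log2 fold change was 1.99 ± 0.28 with an edgeR adjusted p of 0.322, the same as the lowest in the whole gene fit. Leaving out any 1 library kept the log2 fold change between 1.80 and 2.15, and DESeq2 gave an adjusted p of 4.66e-13.

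The difference in the GSS sum was carried by different transcripts in the 2 groups. ENST00000646512 had 0 and 0 counts in the wild-type pair against 3938 and 5168 in the resistant pair. Set against a floor of 3 counts per library, its mean was at least 1174-fold higher in resistant cells (edgeR adjusted p = 0.329). This floor, here and below, covers counting error only and not the division of reads among overlapping transcripts. ENST00000643908 had 12 and 0 counts in the wild-type pair against 2892 and 0 in the resistant pair, so nearly all of its counts were in the first resistant library (edgeR adjusted p = 0.894). ENST00000645723 had the reverse pattern, with 391 and 348 counts in the wild-type pair against 0 and 0 in the resistant pair, at least 159-fold lower (edgeR adjusted p = 0.329). Being counted in both libraries of 1 group and in neither of the other was seen for 3.67% of all transcripts tested, 2.53% in the resistant and 1.14% in the wild-type direction. ENST00000644197 was counted in both groups, with 511 and 307 counts in the wild-type pair against 135 and 157 in the resistant pair (log2 fold change -1.84 ± 0.47, edgeR adjusted p = 0.451).

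ENST00000646512 and ENST00000643908 have 10 exons each and lack the same coding exon, shown in the next paragraph. Their sum, chosen after their values were seen, was 12 and 0 counts in the wild-type pair against 6830 and 5168 in the resistant pair. That is 0.861% and 0% of the gene's noncoding counts in wild type (Wilson 95% intervals 0.493 to 1.499% and 0 to 0.338%) and 91.8% and 91.4% in resistant libraries (91.2 to 92.4% and 90.6 to 92.1%). These intervals cover counting error only. The 2 resistant libraries thus differed in which of the pair held the counts, while the intervals of their joint share overlapped. The other 9 GSS transcripts together had 1382 and 1133 counts in the wild-type pair against 608 and 488 in the resistant pair. Without ENST00000645723 as well, the remaining 8 had 991 and 785 counts against 608 and 488. The sum of the gene was therefore higher, and that of its remaining transcripts lower, in both resistant libraries.

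The following GSS stretches are shown because they hold 1 difference between the transcripts counted mainly in resistant cells and the one counted only in wild type, which also differ in their ends and in other exons. All are on the minus strand of chromosome 20, GRCh38, from the GENCODE release 29 transcript sequences. ENST00000646512 joins its exons 6 (chr20:34936763-34936840) and 7 (chr20:34931939-34932133) directly, and ENST00000643908 joins chr20:34936943-34937023 to the same exon 7, so that it also lacks the 78-base exon 6 of ENST00000646512. ENST00000645723 has the 67-base exon chr20:34935576-34935642 between them, an exon that is in 8 of the 11 protein-coding GSS transcripts. Capitals mark the downstream side of each junction in the first 2 lines and the additional exon in the third.
ENST00000646512, exons 6 and 7: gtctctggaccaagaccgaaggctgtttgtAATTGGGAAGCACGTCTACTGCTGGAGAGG
ENST00000643908, exons 6 and 7: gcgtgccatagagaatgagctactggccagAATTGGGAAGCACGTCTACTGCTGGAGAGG
ENST00000645723, exon 8 and flanks: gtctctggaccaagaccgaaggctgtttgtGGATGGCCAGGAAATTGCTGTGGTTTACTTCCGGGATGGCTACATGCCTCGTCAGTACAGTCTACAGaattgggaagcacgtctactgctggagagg

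The bases that come before the junction in ENST00000646512 are the same as those before exon 8 in ENST00000645723, and the bases after it are the same as those after exon 8. Neither of the 2 direct junctions is found in a protein-coding GSS transcript of release 29. What makes ENST00000646512 a retained-intron transcript is a 303-base intron, chr20:34942628-34942930, that 5 GSS transcripts keep whole, among them all 4 just described. The ends of the 303-base intron are shown with the GT and AG of the splice sites in capitals. They mark a part of these transcripts that is in no coding exon. Coding transcripts also splice a 345-base form with the same 5′ end, chr20:34942586-34942930.
Kept intron, 5′ end: cattgcccagGTaaccattcccagccctac
Kept intron, 3′ end: gccttcagttttccccacAGactgtgttcc

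All 303 bases of ENST00000646512 that lie outside coding exons are the intron shown, while ENST00000645723 has 311 such bases and ENST00000644538 has 406. The same intron is in ENST00000645723, which had no count in resistant libraries, and in ENST00000644197 and ENST00000644538. In ENST00000646512, 84.1% of bases lie in exons of protein-coding GSS transcripts, and none is private to it among the transcripts of the gene. No 31-base window of ENST00000646512, ENST00000643908 or ENST00000645723 occurs in another gene. How many of their counts came from reads of GSS mRNA was not tested.

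**Figure D2:**
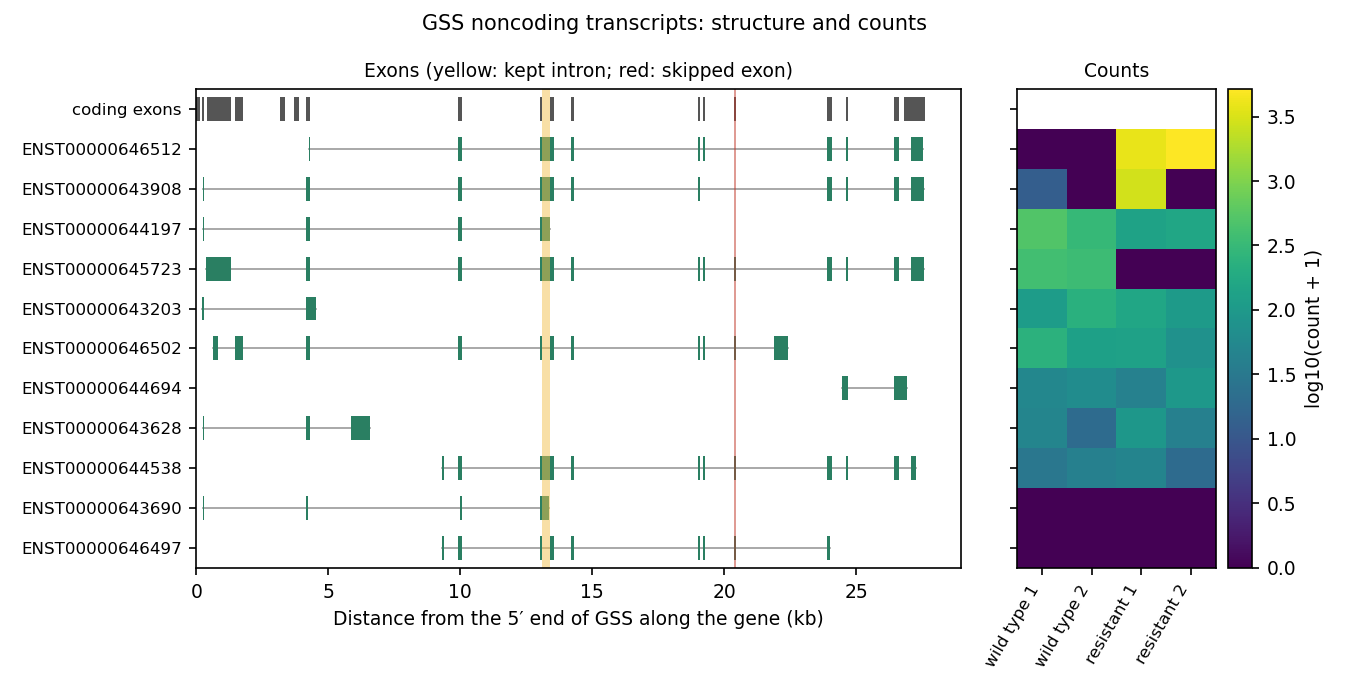
Exons of the 11 noncoding GSS transcripts along the gene (kb from its 5′ end), below the merged exons of its protein-coding transcripts, with log10(count + 1) in each library. The kept intron is in yellow and the 67-base exon in red; ENST00000646512 and ENST00000643908 lack that exon and hold 6830 and 5168 counts together in the resistant libraries.

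The remaining GSS transcripts had fewer counts. ENST00000646502 had 242 and 127 counts in the wild-type pair against 133 and 75 in the resistant pair, lower without overlap once scaled to library size. ENST00000643203 had 110 and 230 against 159 and 103 counts. ENST00000643628, ENST00000644694 and ENST00000644538 each had between 19 and 93 counts in every library, and these 4 had overlapping groups. ENST00000646497 and ENST00000643690 were at 0 throughout.

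SLC7A11 encodes the light chain of the cystine/glutamate antiporter that brings in cystine for glutathione synthesis (chromosome 4, 138164097 to 138242349, minus strand). With no noncoding transcript of it in the table, it has no value here. SLC7A11-AS1, a noncoding gene that overlaps it on the opposite strand, had 321 and 401 counts in the wild-type pair against 923 and 925 in the resistant pair. Its means were 12.8 ± 2.73 and 25.0 ± 0.504 CPM (SD, n = 2 each; log2 fold change 0.96 ± 0.33, edgeR adjusted p = 0.572). The groups did not overlap, but whether the counting used strand is not given, so reads of SLC7A11 and of its antisense partner may not be told apart.

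GSR encodes glutathione reductase, which uses NADPH to regenerate reduced glutathione (chromosome 8, 30678061 to 30727999, minus strand). Its counted transcript, ENST00000643525, had 116 and 136 counts in the wild-type pair against 103 and 137 in the resistant pair. Scaled to library size, both resistant values were below both wild-type values, at means of 4.47 ± 0.755 and 3.25 ± 0.711 CPM (SD, n = 2 each) (log2 fold change -0.46 ± 0.45, edgeR adjusted p = 0.837). ENST00000521479 was at 0 throughout.

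GPX4 encodes the selenoenzyme that reduces lipid hydroperoxides with glutathione and restrains ferroptosis (chromosome 19, 1103926 to 1106791, plus strand). Its noncoding transcripts were nearly undetected, with sums of 9 and 17 counts in the wild-type pair against 13 and 13 in the resistant pair. ENST00000587932 had 9 and 15 against 6 and 10 counts, and ENST00000592940 had 0 and 2 against 7 and 3. Neither transcript passed the low-count filter, and the sum gave a log2 fold change of -0.40 ± 0.74 (edgeR adjusted p = 0.923), which was 0.20 without the second wild-type library.

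GSTP1 encodes a cytosolic glutathione transferase of the pi class (chromosome 11, 67583595 to 67586656, plus strand). Its 3 noncoding transcripts summed to 441 and 358 counts in the wild-type pair against 750 and 1960 in the resistant pair. Both resistant values were above both wild-type values, at means of 14.1 ± 1.27 and 36.9 ± 23.8 CPM (SD, n = 2 each; log2 fold change 1.39 ± 0.60, edgeR adjusted p = 0.663). The second resistant library decided the size: without it the log2 fold change was 0.50. Most of its excess was in ENST00000467591, with 242 and 188 counts in the wild-type pair against 443 and 1667 in the resistant pair (log2 fold change 1.94 ± 0.83, edgeR adjusted p = 0.786), and the value was 0.65 without the second and 2.61 without the first resistant library. Without that transcript, a sum chosen after its values were seen, the gene had 199 and 170 against 307 and 293 counts. ENST00000494593 also lay higher without overlap, at 115 and 117 against 223 and 245 counts (log2 fold change 0.64 ± 0.41, edgeR adjusted p = 0.906). ENST00000489040 had 84 and 53 against 84 and 48 counts.

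MGST1 encodes a membrane-bound glutathione transferase with peroxidase activity that is abundant in liver (chromosome 12, 16347142 to 16609259, plus strand). It had the highest noncoding level of the 9 genes, with sums of 43117 and 14727 counts in the wild-type pair against 5987 and 23307 in the resistant pair. The groups overlapped, at 1464 and 542 CPM in wild type and 160 and 639 CPM in resistant libraries. The log2 fold change was -1.33 ± 0.91 (edgeR adjusted p = 0.761). It was -0.44 without the first wild-type library, -0.65 without the first resistant one and -2.66 without the second resistant one.

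In MGST1, 1 pair of transcripts held most of the counts in every library but the first resistant one. ENST00000539036 had 33256 and 8795 counts in the wild-type pair against 1400 and 3492 in the resistant pair, without overlap (log2 fold change -3.43 ± 0.96, edgeR adjusted p = 0.517). That value was -2.27 without the first and -4.06 without the second wild-type library, and -4.28 without the second resistant one. ENST00000538857 had 7768 and 3230 counts in the wild-type pair against 0 and 13917 in the resistant pair, so its replicates went opposite ways in the resistant group (edgeR adjusted p = 0.9999). The 2 transcripts have 5 exons each and end at different positions, 16609259 for ENST00000539036 and 16589580 for ENST00000538857. Those ends lie within the span of LMO3, on the opposite strand, whose own noncoding transcripts had no count. AC007552.2 overlaps MGST1 on the same strand and had 22 and 0 counts in the wild-type pair against 80 and 22 in the resistant pair. Of all 31-base windows, 10.6% in ENST00000539036 and 11.7% in ENST00000538857 occur in other genes. Set apart after their values were seen, these 2 transcripts summed to 41024 and 12025 counts in the wild-type pair against 1400 and 17409 in the resistant pair. The other 6 summed to 2093 and 2702 counts in the wild-type pair against 4587 and 5898 in the resistant pair, the opposite order to ENST00000539036. Of the 6, ENST00000537878 was the one whose groups did not overlap, at 689 and 783 against 2180 and 1355 counts (log2 fold change 0.88 ± 0.42, edgeR adjusted p = 0.835). ENST00000535624, ENST00000542256, ENST00000539708, ENST00000359720 and ENST00000534835 ranged from 99 to 2970 counts with overlapping groups.

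**Figure D3:**
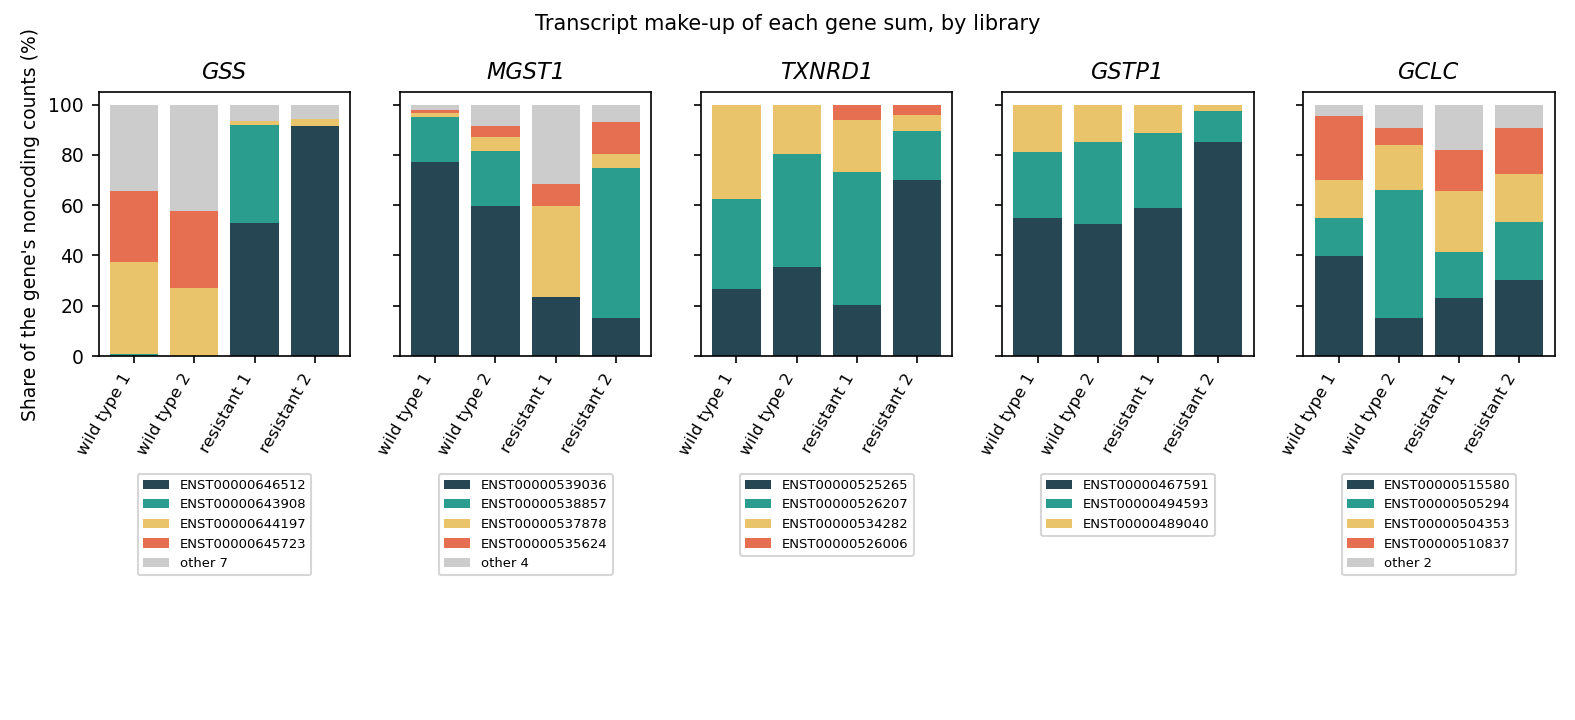
Share (%) of each gene's noncoding counts held by its leading transcripts in the 4 libraries, for the 5 genes with 3 or more counted transcripts. In GSS the leading transcripts change between groups, with ENST00000646512 and ENST00000643908 at 91.8% and 91.4% in the resistant libraries; in MGST1 the resistant libraries differ from each other.

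TXN encodes thioredoxin, the small protein that reduces disulfides in other proteins (chromosome 9, 110243811 to 110256640, minus strand). Its 1 noncoding transcript, ENST00000487892, had 272 and 189 counts in the wild-type pair against 323 and 322 in the resistant pair. In CPM the groups overlapped at 8.10 ± 1.61 and 8.72 ± 0.143 (SD, n = 2 each; log2 fold change 0.11 ± 0.37, edgeR adjusted p = 0.960). The value was -0.083 without the second wild-type library. Of its 31-base windows, 12.4% occur in other genes.

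TXNRD1 encodes the cytosolic selenoenzyme that reduces thioredoxin with NADPH (chromosome 12, 104215779 to 104350305, plus strand). Its 4 noncoding transcripts summed to 1688 and 1710 counts in the wild-type pair against 1643 and 4675 in the resistant pair. The groups overlapped, with means of 60.1 ± 3.99 and 86.0 ± 59.6 CPM (SD, n = 2 each; log2 fold change 0.52 ± 0.61, edgeR adjusted p = 0.867). Without the second resistant library the value changed sign, to -0.46. That library's excess lay in ENST00000525265, with 452 and 606 counts in the wild-type pair against 333 and 3280 in the resistant pair. Without this transcript, a sum chosen after its values were seen, TXNRD1 had 1236 and 1104 against 1310 and 1395 counts. ENST00000526207 had 601 and 769 against 870 and 903 counts (log2 fold change -0.01 ± 0.39, edgeR adjusted p = 0.9999). ENST00000534282 was lower without overlap, at 635 and 335 against 341 and 295 counts (log2 fold change -0.97 ± 0.48, edgeR adjusted p = 0.847).

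ENST00000526006 was the TXNRD1 transcript with counts in resistant libraries alone, at 0 and 0 in wild type against 99 and 197. This was at least 38.3-fold higher against a floor of 3 counts per library (edgeR adjusted p = 0.335). It is a 5-exon processed transcript that ends upstream of ENST00000526207. Of its 4 splice junctions, 3 are in no protein-coding TXNRD1 transcript.

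AC089983.1, an antisense gene that overlaps TXNRD1, had 2228 and 2340 counts in the wild-type pair against 1884 and 1961 in the resistant pair (log2 fold change -0.64 ± 0.25, edgeR adjusted p = 0.631). Its order, lower in both resistant libraries, was not that of the TXNRD1 sum.

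**Figure D4:**
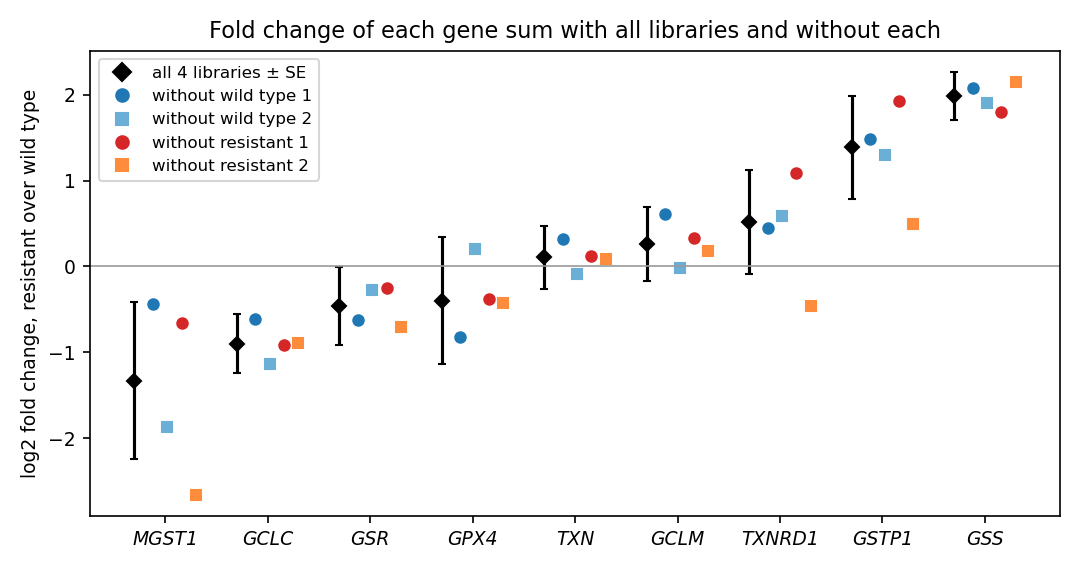
Log2 fold change (resistant over wild type) of each gene's noncoding sum with all 4 libraries (diamond, bar = SE) and without each library. GSS stays between 1.80 and 2.15 and GCLC below 0, while TXNRD1 is at -0.46 and GSTP1 at 0.50 without the second resistant library.

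Levels between the genes were compared as CPM per kilobase of transcript. The order, from the lowest to the highest library of each, was MGST1 (232.2 to 2007), TXNRD1 (70.3 to 190), GSS (35.2 to 98.8), GCLC (16.5 to 30.1), GSTP1 (12.2 to 56.8), TXN (10.03 to 13.8), GCLM (5.95 to 10.2), GSR (1.32 to 2.16) and GPX4 (0.640 to 1.62). The gene order is by median over the libraries. The ranges of TXNRD1 and GSS overlapped, as did each neighbouring pair from GCLC to GCLM and the pair GSR and GPX4. Among neighbours in this order, MGST1 lay apart from TXNRD1, GSS from GCLC, and GCLM from GSR. The range of GSTP1, further down, overlapped that of GSS.

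The 35 counted transcripts shared much sequence with the mRNAs of their genes. A median of 56.0% of their bases lay in exons of protein-coding transcripts of the same gene (range 0 to 89.7%), and 21 of 35 had at least 50% there. For 17 of them every splice junction was also found in a protein-coding transcript, and 5 had no base of their own. The counts therefore depend on how reads were divided between these transcripts and the mRNAs, which no source used here tells. The extremes were ENST00000645723 of GSS at 89.7% and ENST00000359720 of MGST1 at 0%.

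**Figure D5:**
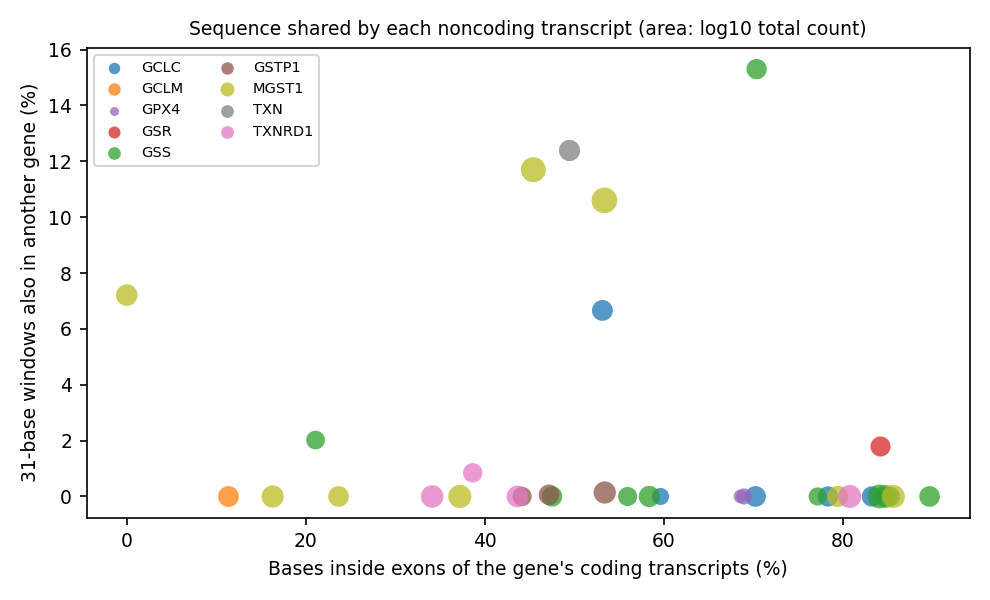
Share (%) of each counted transcript's bases inside coding exons of its gene (horizontal) against the share (%) of its 31-base windows that also occur in another gene (vertical), with area by log10 total count. Most lie at 0 on the vertical axis; the 2 leading MGST1 transcripts are at 10.6% and 11.7% and ENST00000646502 of GSS is at 15.3%.

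NRF2 binds antioxidant response elements that contain the letters TGACNNNGC. The RefSeq promoter table (GRCh38.p14, 250 bases before to 50 after each start) held 12 promoters of 7 member genes. Of the 12, 5 held these letters on either strand. They were 1 of 1 in GCLM, 1 of 1 in GSTP1, 1 of 3 in MGST1 and 2 of 2 in TXNRD1. None was found for GCLC, GPX4 or TXN. Over all 35116 promoters the share was 13.3%. GSS, GSR and SLC7A11 had no promoter there and were not searched. The 2 TXNRD1 promoters both held a match. One is shown because ENST00000526207, the noncoding TXNRD1 transcript with near-equal levels in both groups, starts at the same position; capitals mark the match, read on the opposite strand, in promoter chr12:104286782-104287081.
TXNRD1 promoter: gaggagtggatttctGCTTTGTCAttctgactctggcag

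A match is a description of letters and not a site. Of the 4 genes with a match, GSTP1 was the one whose noncoding sum was higher in both resistant libraries without overlap. Over all genes tested, 22.6% were higher without overlap, so this is near the background. The GSTP1 log2 fold change of 1.39 was 0.50 without the second resistant library, and a link to the match was not tested.

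The wider pathways gave 0 edgeR calls. In a list of 41 other glutathione genes, 31 were in the table and 23 were tested, of which 1 was higher and 0 were lower at an unadjusted p under 0.05 (4.35%, against 8.67% of all genes), with a median log2 fold change of 0.01, as over all genes. DESeq2 called 1 of them, against 9.35% of all genes, and limma-voom 0. LAP3, an aminopeptidase, had 377 and 422 counts in the wild-type pair against 1332 and 1639 in the resistant pair (log2 fold change 1.51 ± 0.33, edgeR adjusted p = 0.393). MGST3, a microsomal relative of MGST1, was the most abundant, at 87116 and 71145 against 16422 and 70052 counts (edgeR adjusted p = 0.743). GSTCD had 20237 and 3983 against 2361 and 6876 counts and GPX8 had 137 and 710 against 120 and 184, both with overlapping groups.

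In a list of 24 other thioredoxin genes, 21 were in the table and 16 tested, of which 0 were higher and 1 lower at an unadjusted p under 0.05 (6.25%, against 8.67% of all genes), with a median log2 fold change of 0.01. DESeq2 called 1 higher and 2 lower, against 9.35% of all genes, and limma-voom 0. The gene under 0.05 was TXNRD2, the mitochondrial thioredoxin reductase, at 7671 and 8706 counts in wild type against 3490 and 2756 (log2 fold change -1.78 ± 0.28, edgeR adjusted p = 0.342). Its replicates differed by 1.23 times in each group. TXNDC5, a disulfide isomerase of the endoplasmic reticulum, was the most abundant, at 71201 and 75396 against 60606 and 67607 counts (edgeR adjusted p = 0.618). PRDX6, a peroxiredoxin, had 12615 and 8466 against 12668 and 10929 counts, and TXNL1 had 0 and 4 against 85 and 37.

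In a list of 27 NRF2 and NADPH genes, 22 were in the table and 20 tested, of which 2 were higher and 3 lower at an unadjusted p under 0.05 (25.0%, against 8.67% of all genes), with a median log2 fold change of 0.05. DESeq2 called 3 higher and 3 lower, against 9.35% of all genes, and limma-voom 0. AKR1C1, an aldo-keto reductase and well-known NRF2 target, had 2942 and 1325 counts in wild type against 259 and 541 (log2 fold change -2.77 ± 0.65, edgeR adjusted p = 0.393). MAFF, a small MAF partner of NRF2, had 1 and 1 counts in wild type against 58 and 83 (edgeR adjusted p = 0.322). FTH1, the ferritin heavy chain, had 10932 and 11046 against 20106 and 21024 counts (log2 fold change 0.52 ± 0.22, edgeR adjusted p = 0.661). TKT, the transketolase of the pentose phosphate pathway, had 28819 and 35444 against 28787 and 28587 counts (edgeR adjusted p = 0.679). Also at an unadjusted edgeR p under 0.05 were SQSTM1 (higher), AKR1C2 and ABCC3 (both lower), whereas FTH1 and TKT were not. SQSTM1 had 1718 and 1502 against 3588 and 3865 counts. AKR1C2 had 5800 and 5168 against 4311 and 2418 counts, and ABCC3 had 12477 and 11744 against 8756 and 10109. Over the 20 tested genes, the log2 fold change was above 0 for 10 and below 0 for 10.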

How the data were processed

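The table the authors deposited holds estimated counts of noncoding transcripts in 4 libraries, made from paired 150-base reads of libraries from 2 µg of total RNA per the labels; that they are estimated counts was read from the values, which are whole numbers with totals that differ. No source used here names the counting tool, the annotation or the use of strand. Mouse build mm9 stands in the submitters' processing notes, whereas the identifiers are human. Names and positions came from GENCODE release 29 (GRCh38), which named 84072 of 103347 Ensembl identifiers; 150 coding or decay transcripts were left out.

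Counts were summed per gene and tested with edgeR 4.0.16 (quasi-likelihood, TMM, filterByExpr minimum count 10) in R 4.3.3, two-sided, on all features, and the test was also run on simulated data. With 2 libraries a group, an exact permutation test cannot go below p = 0.33. A floor of 3 counts equals 0.0660 to 0.0908 CPM for transcripts and covers counting error only. Alternatives were DESeq2 1.42.0, limma-voom 3.58.1, other scalings and filters, a replicate block and each library left out. In each gene the transcripts named were the 3 of highest mean and the 2 of smallest p without overlap. In each list the genes named were the 2 of highest mean, the 2 of smallest p and any other at an unadjusted edgeR p under 0.05. The members and lists were chosen with earlier results of these data known. Some items are not reported here.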

Additional observations from a re-analysis of the deposited data

How the results depend on the processing

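Of 107 alternative values of the 9 member gene sums, 102 kept their direction and side of the threshold. DESeq2 moved the GSS sum past the threshold (log2 fold change 1.99, adjusted p = 4.66e-13); it called 3239 transcripts and 1446 genes, with 5872 and 3036 at an unadjusted p under 0.05, where edgeR had 3283 and 1191. Of the transcripts, it called ENST00000646512, ENST00000645723, ENST00000526006, ENST00000644197 and ENST00000539036 (adjusted p from 1.20e-11 to 0.0491). With the replicate number as a block, edgeR still called 0, with 1961 transcripts and 778 genes at an unadjusted p under 0.05. Same-numbered libraries did not deviate together (r = -0.02 over genes, 0.01 over transcripts). This correlation cannot show whether they share a batch or culture, which no source used here tells. The cause of the differences between these settings was not tested.

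Leaving out each library in turn gave log2 ranges that crossed 0 for the sums of GCLM (-0.0185 to 0.61) and TXN (-0.083 to 0.33), each negative without the second wild-type library, GPX4 (-0.83 to 0.20), positive without that library, and TXNRD1 (-0.46 to 1.09), negative without the second resistant one. Of 229 values for 21 named transcripts, 14 changed sign. Leaving out libraries gave -1.70 to 0.23 for ENST00000515580, -1.06e-05 to 0.62 for ENST00000462183, -5.68 to 13.3 for ENST00000643908, -1.08 to 2.27 for ENST00000525265, -0.23 to 0.25 for ENST00000526207, -0.064 to 0.34 for ENST00000487892 and -15.5 to 1.02 for ENST00000538857. ENST00000526207 was also at 0.11 without TMM, 0.011 with limma-voom and 0.0098 with the replicate block, and ENST00000538857 at -6.36 with limma-voom and -5.48 with the block. The fitted values of transcripts with zeros depend on the prior count and are no bounds. GPX4 has no value at a minimum count of 50. Where a group is left with 1 library, that library is assumed to vary like the other group.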
